A study of Equus caballus with 6 samples.

Results

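Interleukins are secreted proteins through which leukocytes, epithelial cells and stromal cells signal to one another, and most act through receptors of paired subunits, several of which are shared between ligands. The interleukins and interleukin receptors described here are the probe sets whose single gene symbol begins with IL and a digit, without IL1A, IL1B, IL1RN, IL1R1, IL1R2, IL18, IL6, IL6ST and IL8. This rule found 32 gene symbols, of 9155 on the array, read by 45 of the 24016 probe sets besides the controls. A single symbol was attached to 13292 of those 24016. A probe set is the group of short probes on the array that together read 1 transcript.

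The arrays read lamellar hoof tissue, the interleaved dermis and epidermis by which the horse's hoof wall holds the coffin bone. The samples came from the right foot, 3 of them labelled laminitis (replicates 1, 3 and 4), a disease in which that suspension gives way, and 3 labelled normal (replicates 2, 3 and 4). Horse RNA was hybridised to a bovine Affymetrix array, 1 array per sample, which asks how far transcripts differ between diseased and normal lamellae. How laminitis arose, its stage, and the breed, age and sex of the animals are not given in the sources used here. Nothing in the labels says that the samples are from separate horses, so a p-value speaks only to how these 6 samples vary, and part of that variation may be technical.

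The median signal ran from 86.7 to 96.6 over the 6 arrays, on the linear scale on which the values were deposited. All 5 basal keratinocyte markers with a probe set were bright enough to test, among them KRT5 and KRT14, the keratin pair of the basal epidermal layer, as were all 8 fibroblast markers. None of the 9 markers listed for dendritic and Langerhans cells had a probe set with a single symbol. The RefSeq gene table of the horse (TB-T2T assembly) held 30 of the 32 interleukin symbols.

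The interleukins belong to a few families that differ in the cells they address. Ligands of the common gamma chain (IL2, IL4, IL7, IL15, IL21) sustain and activate lymphocytes and signal through Janus kinases and STAT proteins. The interleukin-10 receptor acts mainly on leukocytes, the interleukin-20 and interleukin-22 receptors carry signals to epithelium, including keratinocytes, and the interleukin-17 receptors drive antimicrobial and neutrophil-attracting genes there. Receptors of the interleukin-1 and interleukin-18 type signal through MYD88 instead.

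Most interleukin probe sets were dim. Of the 45, the number brighter than the median non-control probe set was 15, 17 and 15 on laminitis replicates 1, 3 and 4, and 11, 13 and 17 on normal replicates 2, 3 and 4. These are 24.4% to 37.8% of the probe sets, where 54.6% to 55.7% of all single-symbol probe sets lay above the median on the same arrays. The ranges of the 2 groups overlapped, since normal replicate 4 equalled laminitis replicate 3. By array count, 21 of the 45 probe sets (46.7%) were above the median on no array, against 30.3% of single-symbol probe sets, and 7 (15.6%) were above it on all 6, against 40.1%. A bovine probe that mismatches the horse transcript reads low, so a dim probe set does not show that the transcript is absent. Signals of different probe sets, also within the sums of markers given below, are not read as relative amounts of transcript.

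**Figure D1:**
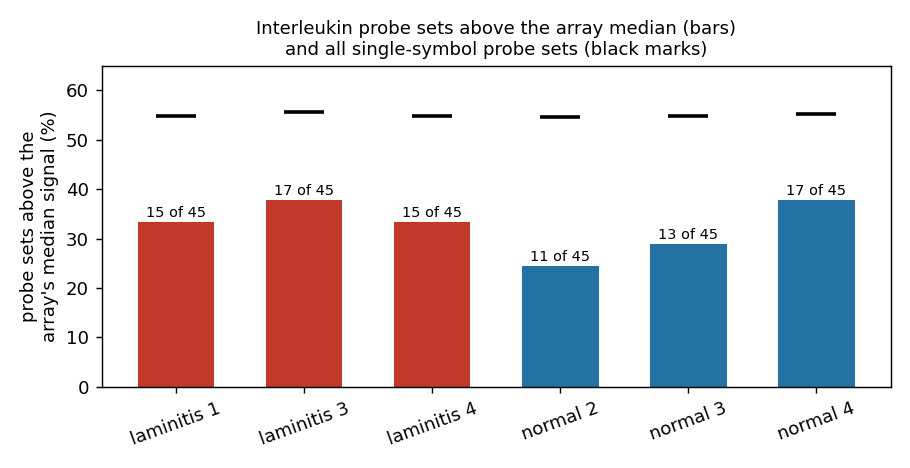
Bars give the percentage of the 45 interleukin probe sets above the array's median signal on each array (vertical axis in percent, red laminitis, blue normal, counts printed above), and black marks give the same percentage for all 13292 single-symbol probe sets. Every bar, from 24.4% to 37.8%, stands below its mark, which lies between 54.6% and 55.7%.

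Testing was limited to probe sets brighter than the array median on at least 3 of the 6 arrays. That left 16 interleukin probe sets, for 14 genes, among 12519 tested in all. In limma, with Benjamini-Hochberg adjustment over all 12519, 0 of the 16 were called different between laminitis and normal at an adjusted p of 0.05, where 0% of all tested probe sets were called. At an unadjusted p under 0.05 there was 1 of the 16, against 9.79% of all tested probe sets. The smallest adjusted p among the 16 was 0.322 and the largest 0.985.

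The log2 difference, laminitis minus normal, was positive for 8 and negative for 8 of the 16 probe sets, with a median of 0.023 and a mean of -0.027. Over all tested probe sets the median was -0.056 and 43.7% were positive. The split of the 16 moved to 10 positive and 6 negative after quantile normalization, and to 11 and 5 after either median centring or cyclic loess. The median over all tested probe sets also rose, to -0.035 after quantile normalization, 0.027 after median centring and -0.021 after cyclic loess. The 95% interval of the difference lay within 1 log2 unit of 0, that is, within a 2-fold change either way, for 11 of the 16, against 57.4% of all tested probe sets. With no filter, the 45 probe sets had 22 positive and 23 negative differences and a median of -0.025, beside -0.066 over all 24016.

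**Figure D2:**
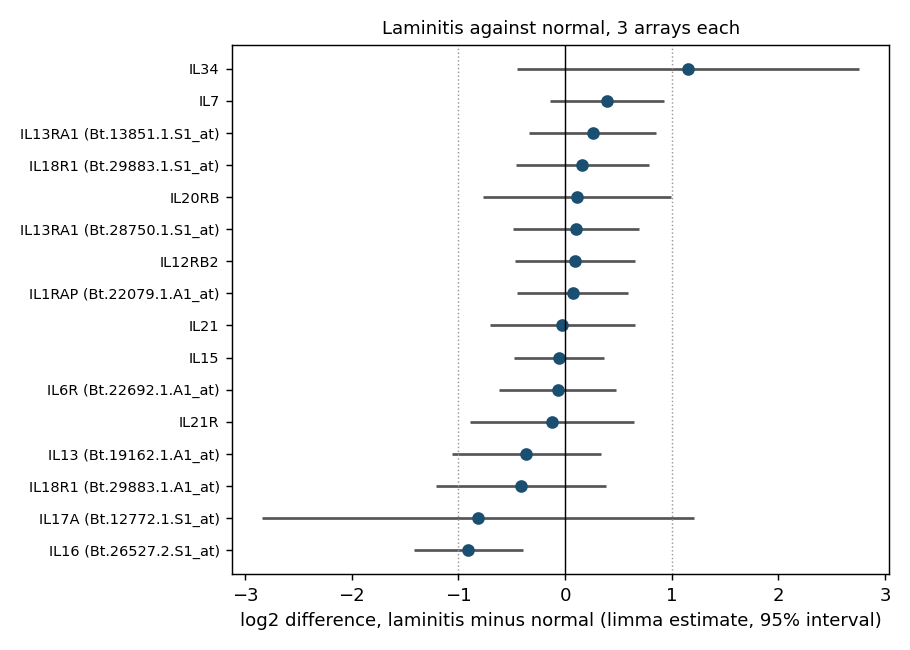
Each point is limma's log2 difference between laminitis and normal (horizontal axis, positive where laminitis is higher, n = 3 arrays per group) for 1 of the 16 tested probe sets, and the line is its 95% interval; dotted lines stand at -1 and 1. The interval excludes 0 for IL16 (-1.42 to -0.39) and includes it for the other probe sets, and it is widest for IL17A and IL34.

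Values on single arrays are given below in the order laminitis replicates 1, 3 and 4, then normal replicates 2, 3 and 4. Groups are said not to overlap when all 3 laminitis values lie on the same side of all 3 normal values. That held for 2 of the 16 tested probe sets, IL16 (lower) and IL7 (higher), where it held for 16.8% of all tested probe sets, 7.89% with laminitis higher and 8.92% with laminitis lower. Both entered the test through a single group: IL16 was above the array median on the 3 normal arrays and on no laminitis array, and IL7 on the 3 laminitis arrays and on no normal array. Such probe sets had to differ to be tested at all, so nothing is read from the count of 2, and their p-values and intervals below describe the arrays and are not support for a difference.

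IL16, a chemoattractant for CD4-bearing cells that is cut from a larger precursor, had the smallest p of the family. Its tested probe set read 62.8, 46.65 and 64.7 in laminitis and 104.2, 123 and 97.5 in normal tissue. The highest laminitis array thus lay below the lowest normal array. Laminitis was lower by a log2 difference of -0.91 ± 0.22 (SE, n = 3 per group; 0.533 of the normal geometric mean), with an unadjusted limma p of 0.00421 and an adjusted p of 0.322. The exact two-sided permutation test over the arrays gave p = 0.1, the smallest that 3 arrays against 3 allow. With an intensity trend and robust variance the unadjusted limma p was 0.0822, and with 64 added to every signal the log2 difference was -0.50.

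The groups overlapped in the other 2 IL16 probe sets, which share a transcript cluster with the tested one. The brighter of them read 57.1, 62.3 and 63.6 in laminitis and 61.5, 65.7 and 62.9 in normal tissue. The dimmer read 20.2, 15.98 and 28.5 against 18.8, 39.0 and 34.1. Neither was above the median on any array. Their log2 differences in the fit without a filter were -0.057 ± 0.21 and -0.48 ± 0.38.

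IL16 is made by lymphocytes, so T cell and natural killer cell markers are given beside it. Of 18 such markers, 15 had a probe set and 11 were tested. Among those 11, 4 had a positive and 7 a negative log2 difference, and 0 passed the adjusted test. The groups did not overlap for 3, against 17.1% of all tested genes, namely CD4 (higher), CD2 and CD247 (lower). The summed signal of the 15 ranged from 1745 to 1991 in laminitis and from 1942 to 2274 in normal tissue, and none of them read under 1 on all arrays. CD4 had a log2 difference of 0.30 ± 0.20, the adhesion molecule CD2 of -0.98 ± 0.38 and CD247, a chain of the T cell receptor complex, of -0.81 ± 0.32. The others, with overlapping groups, were GZMB (-0.77), CD8A (-0.25), CD3G (-0.16), LCK (-0.024), CD3E (-0.021), CD3D (0.028), ZAP70 (0.030) and PRF1 (0.093). The median of the 11 was -0.024, beside -0.029 over all tested genes. The part of these markers in the IL16 values was not tested, and fewer cells of a type cannot be told apart from less RNA per cell in whole tissue.

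Among the common gamma chain ligands, IL7, a stromal and epithelial growth factor for lymphocytes, read 92.1, 95.7 and 139.8 in laminitis and 82.6, 77.8 and 84.7 in normal tissue. The laminitis arrays were all higher, with replicate 4 well above the others. The log2 difference was 0.39 ± 0.23 (1.31-fold; 95% interval -0.14 to 0.93; limma adjusted p 0.611), and it was 0.20 without laminitis replicate 4. IL15, which maintains natural killer cells and memory T cells, was the steadiest of the 16 probe sets, with a within-group SD of 0.088 on the log2 scale against a median of 0.33 over all tested probe sets. It read 233, 245 and 253 in laminitis and 239.7, 244 and 276 in normal tissue, from 2.49 to 2.98 times the array median. The log2 difference of IL15 was -0.055 ± 0.18, with a 95% interval from -0.48 to 0.37, which leaves out a doubling or a halving.

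IL21, made by activated helper T cells, read 110.1, 84.3 and 106.9 in laminitis and 68.6, 124 and 122 in normal tissue. Its groups overlapped, and the difference was -0.025 ± 0.29. IL4, the cytokine of type 2 immunity, was above the median on laminitis replicate 1 alone, and IL2, the T cell growth factor, on no array. Across the 6 arrays IL4 read from 47.4 to 112 and IL2 from 13.5 to 59.4.

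Of the receptors for these ligands, IL21R was above the median on all 6 arrays. It read 229, 146 and 210.3 in laminitis and 179, 318 and 159 in normal tissue, and normal replicate 3 stood highest. The log2 difference was -0.12 ± 0.33. IL2RG, the common gamma chain itself, exceeded the median on 2 arrays, laminitis replicates 1 and 3, and was not tested. It read 144, 123 and 82.4 in laminitis and 82.7, 20.6 and 66.1 in normal tissue, so laminitis replicate 4 fell just below normal replicate 2. In the fit without a filter its log2 difference was 1.23 ± 0.56, or 0.60 with 64 added.

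IL2RA, the high-affinity subunit for IL-2, was above the median on laminitis replicate 4 only, with values from 37.1 to 99.3 and overlapping groups. The 2 probe sets of IL4R, the subunit shared by the receptors for IL-4 and IL-13, were below the median throughout. They read from 8.67 to 10.7 and from 16.5 to 76.8.

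**Figure D3:**
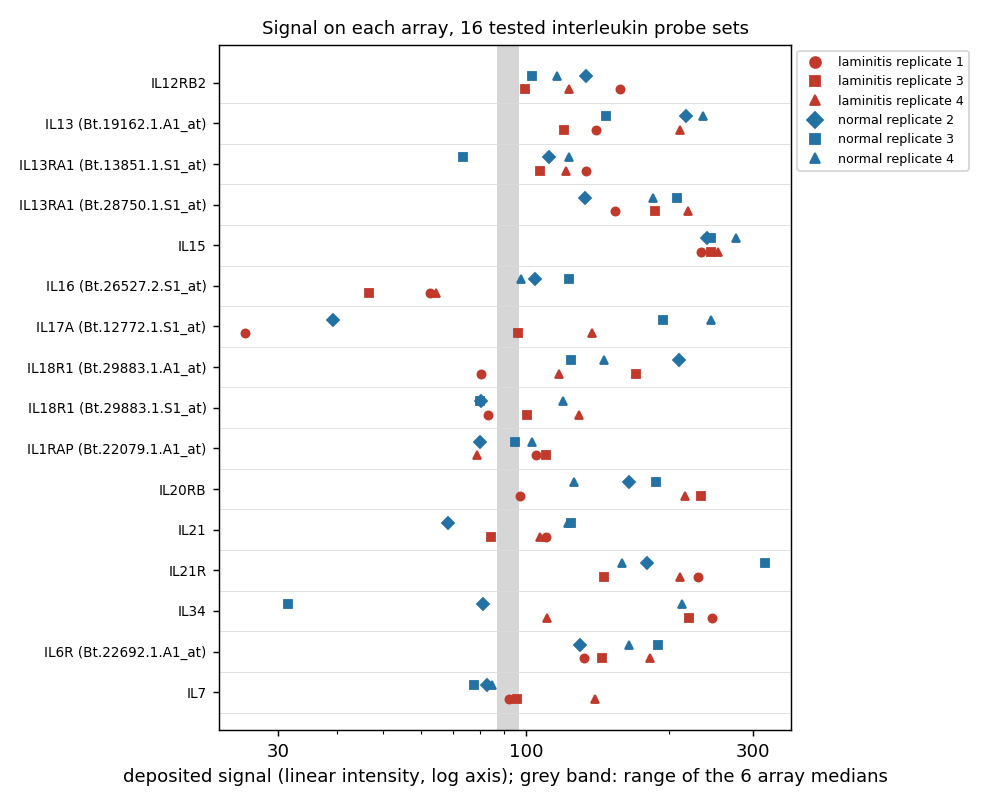
Deposited signal (linear intensity on a log axis) of the 16 tested interleukin probe sets, 1 symbol per array, with red for laminitis, blue for normal and shape for the replicate number; the grey band spans the 6 array medians, 86.7 to 96.6. The groups separate for IL16 and IL7 and overlap in the other 14 rows.

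For IL13, the effector cytokine of type 2 immunity, the tested probe set read 140.4, 119.8 and 210.5 in laminitis and 216, 148 and 236 in normal tissue. The groups overlapped, with a log2 difference of -0.36 ± 0.29. The other IL13 probe set read 40.2, 14.0 and 21.0 in laminitis and 18.3, 13.7 and 106.5 in normal tissue, above the median on normal replicate 4 alone. IL13RA1 forms with IL4R the receptor that answers to both cytokines, and both of its probe sets were tested. The brighter read 154, 186 and 218.5 against 133, 208 and 185, and the dimmer read 133.9, 107.0 and 121 against 112, 73.5 and 123. The groups overlapped in both, and the differences were 0.098 ± 0.25 and 0.26 ± 0.25. IL3, a growth factor for mast cells and basophils, and IL5, that of eosinophils, were below the median on every array, with values from 42.9 to 84.3 and from 11.4 to 15.2.

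In the interleukin-12 family, IL12RB2, the signalling subunit that T cells and natural killer cells use to answer IL-12, was above the median on all 6 arrays. It read 157, 99.55 and 123 in laminitis and 133.5, 103 and 116 in normal tissue, with a difference of 0.091 ± 0.24. The cytokine subunits IL12A and IL12B read from 9.60 to 19.1 and from 19.9 to 28.0, and the receptor IL23R, found on interleukin-17 producing lymphocytes, from 3.47 to 31.1. None of these 3 lay above the median on any array. IL12B was lower on all 3 laminitis arrays (21.2, 22.8 and 19.9 against 28.0, 23.7 and 23.5), all below every array median, and its log2 difference with 64 added was -0.062.

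IL20RB, the subunit common to the keratinocyte receptors for IL-19, IL-20 and IL-24, was the only tested probe set of the interleukin-10 family. It read 97.0, 233.6 and 216 in laminitis and 164, 188 and 126 in normal tissue. Laminitis replicates 3 and 4 were the highest arrays and laminitis replicate 1 the lowest, and the log2 difference was 0.11 ± 0.37. IL10, which restrains macrophages and dendritic cells, exceeded the median on laminitis replicate 3 and normal replicate 2, with 47.7, 107.8 and 71.6 in laminitis and 98.6, 65.2 and 68.7 in normal tissue. IL10RA, its ligand-binding receptor, read 83.7, 27.1 and 15.9 in laminitis and 61.8, 112 and 55.2 in normal tissue, above the median on normal replicate 3 alone. The partner subunits IL10RB, IL20RA and IL22RA1 stayed below the median on all arrays and read between 6.55 and 77.5.

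The 3 probe sets annotated to IL17A, the signature cytokine of T helper 17 cells, did not move together. The brightest was tested and read 25.6, 96.2 and 138 in laminitis and 39.1, 194 and 245 in normal tissue. In each group 1 array lay far below the other 2, giving the widest within-group SD of the 16 (1.36 on the log2 scale) and a difference of -0.82 ± 0.86. Without laminitis replicate 1 it was -0.097, and without normal replicate 2 it was -1.65.

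Both of the dim IL17A probe sets kept the groups apart, in opposite directions. The first read 39.6, 39.5 and 23.1 in laminitis and 18.5, 13.6 and 3.29 in normal tissue, with a log2 difference of 1.82 ± 0.67 in the fit without a filter. The second, from the same transcript cluster as the tested probe set, read 19.8, 14.1 and 29.2 in laminitis and 35.5, 43.7 and 31.6 in normal tissue, with -0.86 ± 0.33. All of these values lay below every array median, and with 64 added the differences shrank to 0.37 and -0.25. Without a filter, groups did not overlap for 5 of the 45 interleukin probe sets, against 14.6% of all 24016. IL17RC, a subunit of the receptor for IL-17A, exceeded the median on 2 arrays and read 35.4, 110.7 and 81.5 in laminitis against 44.1, 70.2 and 132 in normal tissue. IL17RB, which binds IL-25, also exceeded it on 2 arrays and ranged from 39.7 to 126.

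**Figure D4:**
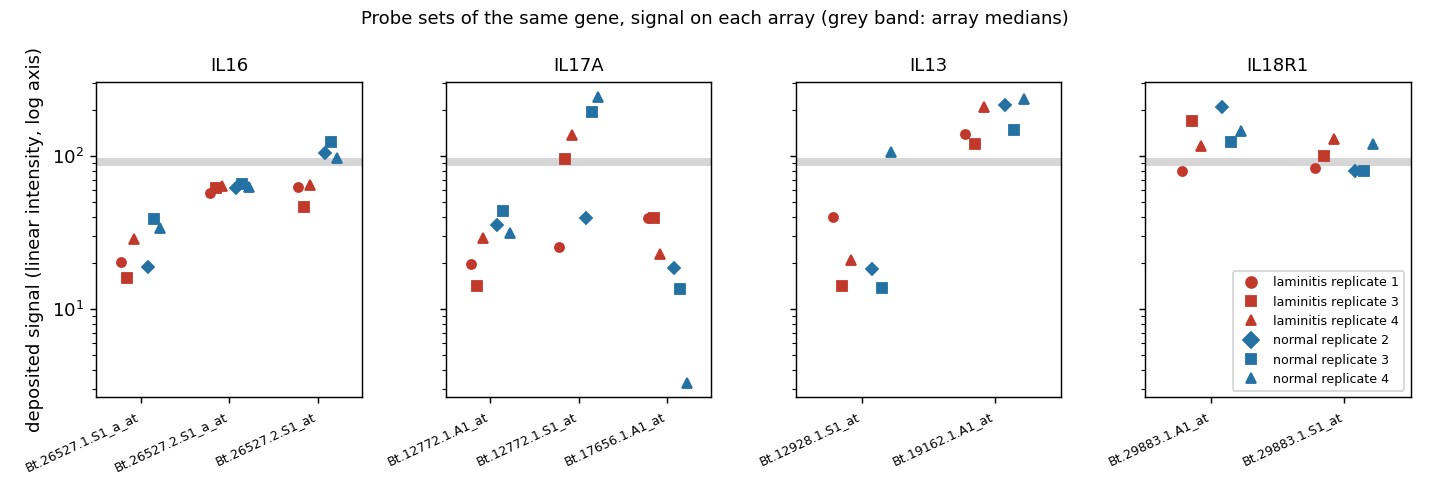
Deposited signal (linear intensity on a log axis) on each array for every probe set of IL16, IL17A, IL13 and IL18R1, with red for laminitis, blue for normal, shape for the replicate number and a grey band for the array medians. The IL16 groups are apart in 1 of its 3 probe sets, and the dim IL17A probe sets separate the groups in opposite directions.

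Among receptors of the interleukin-1 and interleukin-18 type, IL18R1, the subunit that binds IL-18, had 2 tested probe sets whose differences had opposite signs. The brighter read 80.4, 171 and 117 in laminitis and 210, 124 and 145.5 in normal tissue, with a difference of -0.41 ± 0.34. The dimmer read 83.0, 100.3 and 129 in laminitis and 80.3, 79.9 and 119.6 in normal tissue, with 0.16 ± 0.26. The groups overlapped in both. IL1RAP, the accessory chain shared by the receptors for IL-1, IL-33 and IL-36, had 1 tested probe set, which read 105, 109.8 and 78.7 against 79.95, 94.9 and 103, a difference of 0.072 ± 0.22. Its other 2 probe sets were dim, from 1.20 to 7.48 and from 4.04 to 29.4. IL33, an alarmin held in the nuclei of epithelial and endothelial cells, had 3 probe sets, none above the median on any array, with values from 3.12 to 81.7.

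IL6R, the subunit that binds IL-6 before the shared signalling chain joins it, was above the median on all 6 arrays by its tested probe set. It read 132, 144 and 182 in laminitis and 129.8, 189 and 164 in normal tissue, with a difference of -0.070 ± 0.23, while its other probe set read from 9.09 to 34.4. IL34, a ligand of the macrophage receptor CSF1R that keratinocytes make and that maintains Langerhans cells, had the largest difference of the 16 in size. It read 245, 220.1 and 111 in laminitis and 81.1, 31.6 and 212 in normal tissue. Normal replicate 4 lay among the laminitis arrays, and the log2 difference of 1.15 ± 0.68 (2.22-fold; 95% interval -0.45 to 2.76; limma adjusted p 0.621) did not pass. Without normal replicate 4 the difference was 1.84, and without normal replicate 3 it was 0.47. IL34 was above the array median on all 3 laminitis arrays and, of the normal arrays, on replicate 4 alone. Without that array it is bright in laminitis only, so nothing is read from the 1.84.

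The 8 monocyte and macrophage markers with a probe set summed to 720 to 890 in laminitis and 700 to 751 in normal tissue. Of these, 4 were tested, 2 positive and 2 negative. The groups did not overlap for 1, the oxidase subunit CYBB (2.20 ± 0.41), against 17.1% of all tested genes, while MSR1 had 0.59, CD68 -0.26 and CD14 -0.16. CYBB was above the array median on all 3 laminitis arrays and, of the normal arrays, on replicate 4 alone. It would have passed the filter on the laminitis arrays alone, so nothing is read from its separation. With 64 added its difference was 1.37. The part of these markers in the IL34 values was not tested.

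**Figure D5:**
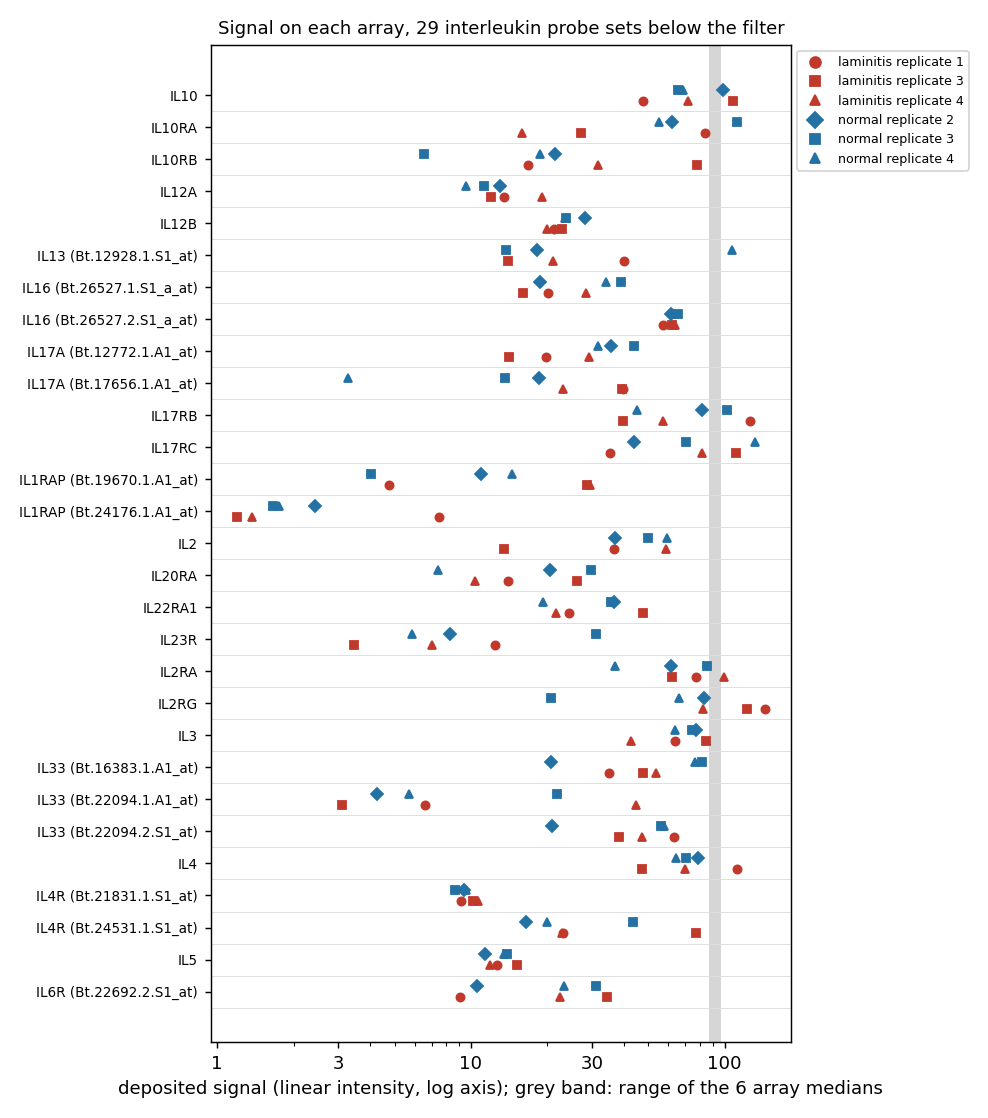
Deposited signal (linear intensity on a log axis) on each array of the 29 interleukin probe sets that were not tested, with red for laminitis, blue for normal and shape for the replicate number; the grey band spans the array medians. Of these, 21 lie below the median on every array, at 1.20 to 84.3, and 8 reach above it on 1 or 2 arrays.

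Of the 32 genes, 18 had no tested probe set, and for 11 of these every probe set was below the median on every array. The 29 probe sets left out had 14 positive and 15 negative log2 differences in the fit without a filter, from -1.14 for IL10RA to 1.82 for an IL17A probe set.

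Genes that act with the interleukins were taken from 5 lists, with the brightest tested probe set standing for each gene. Of 113 distinct genes, 71 had a probe set and 45 were tested. In limma adjusted over all tested probe sets 0 of the 45 passed, where 0% of all 6151 tested genes did. An unadjusted p under 0.05 was found for 9 of them (20%), against 9.79% of all tested genes, and groups did not overlap for 13 (28.9%), against 17.1%. S100A8, S100A9 and SAA3, known to be high in these samples when the lists were made, are 3 of the 9 and 3 of the 13, so nothing is read from either share. The median log2 difference of the 45 genes was -0.0011, beside -0.029 over all tested genes.

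In the Janus kinase, STAT and SOCS list, 8 of 15 tested genes had a positive difference, or 10 after median centring, and 0 passed. PTPN6, the phosphatase SHP-1 that damps cytokine receptor signals, read 114, 128 and 128 in laminitis and 260, 179.8 and 209.9 in normal tissue, a log2 difference of -0.80 ± 0.21 (limma adjusted p 0.35). All laminitis arrays were lower. STAT3, which carries IL-6, IL-10, IL-21 and IL-22 signals, read 228, 165 and 174 against 138, 91.3 and 105 (0.77 ± 0.24, limma adjusted p 0.43). A dimmer STAT3 probe set, not tested, had overlapping groups and 0.77 ± 0.65 in the fit without a filter. STAT5B, used by IL-2, IL-7 and IL-15, read 366.5, 438 and 442 against 297, 296 and 306 (0.47 ± 0.18, limma adjusted p 0.494). Every laminitis array was higher by the tested probe set of both STAT genes.

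Of 8 tested genes of MYD88 and ACT1 signalling, the adaptors used by the interleukin-1, interleukin-18 and interleukin-17 receptors, 7 had a negative difference and 0 passed, with a median of -0.35. After quantile normalization, median centring or cyclic loess 6 of the 8 were negative. TOLLIP, which restrains that pathway, read 119, 81.9 and 126 in laminitis and 226, 204 and 197.5 in normal tissue (-0.96 ± 0.23, limma adjusted p 0.322). TRAF6, the ubiquitin ligase downstream of both adaptors, had -0.54 ± 0.23 with no overlap between groups, while another TRAF6 probe set gave 0.83. IRAK4, the first kinase of the MYD88 complex, had -0.36 ± 0.27, and a dim probe set of it gave 0.35.

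Among 12 tested cytokines and receptor subunits with other names, 5 were positive and 0 passed, with a median of -0.083 that turned to 0.014 after quantile normalization, 9.8e-05 after median centring and 0.0215 after cyclic loess. CSF2RB, the beta chain common to the IL-3, IL-5 and GM-CSF receptors, read 143, 158 and 168 in laminitis and 228, 245 and 186.5 in normal tissue (-0.49 ± 0.20, limma adjusted p 0.506). The oncostatin M receptor OSMR had -0.46 ± 0.22, and its other 3 probe sets were negative too, from -1.16 to -0.050. The growth hormone receptor GHR had 0.45 ± 0.19, with other probe sets of either sign among its 11.

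Of 8 tested genes that respond to IL-17 and IL-22 in epithelium, 7 were positive (6 with 64 added), with a median of 0.58, and 0 passed. Over all tested genes 46.4% were positive. S100A8, S100A9 and SAA3 were known to be high when the list was made, so nothing is read from the 7 or the median. The antimicrobial subunit S100A8 read 9810, 7256 and 779 in laminitis and 429, 133 and 110.2 in normal tissue, highest in laminitis replicates 1 and 3. S100A9, its partner, and the acute-phase protein SAA3 also separated the groups, with 4.52 ± 0.87 and 1.48 ± 0.39 (limma adjusted p 0.226 and 0.345). The groups overlapped for the other 5, KRT17 (0.60), CCL20 (0.56), DEFB4A (0.052), S100A7 (0.027) and TGM1 (-0.23). S100A8 and S100A9 are also abundant in neutrophils. The 9 neutrophil markers with a probe set, S100A8 and S100A9 among them, summed to 1621 to 13410 in laminitis and 642 to 1125 in normal tissue, of which S100A8 and S100A9 made up most in laminitis. The other 7 summed to 356 to 656 in laminitis and 489 to 553 in normal tissue, with overlapping groups. Among these, FCGR3A, S100A12, LTF, CAMP and MMP9 were too dim to test. The 2 of the 7 that were tested, the granule enzymes ELANE (-1.05 ± 0.34) and MPO (-0.44 ± 0.21), were lower on every laminitis array. ELANE was above the array median on the normal arrays alone. It thus had to differ to be tested, and nothing is read from its difference. The part of neutrophils in the S100A8 and S100A9 values was not tested. Only 2 of 16 genes that respond to IL-4 and IL-13 were tested, namely ARG1, arginase 1 (-0.93 ± 0.47), and POSTN, the matrix protein periostin (0.52 ± 0.78), and both had overlapping groups.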

How the data were processed

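Total RNA from 6 lamellar samples was labelled in 1 round of amplification and read on Affymetrix bovine arrays, per the labels' protocols. Each deposited value is an intensity on a linear scale; the submitters' processing notes name GCRMA (version not given), but a trimmed mean of 150.02 or 150.03 on every array and values down to 0.0386 look like a scaling factor per array, so the step by which the authors made them is unsettled. Detection calls were not used here. Gene symbols are bovine, from GEO's platform annotation. The 112 controls were left out. After log2 without an offset and a filter (above the array median on at least 3 of 6 arrays), limma 3.58.1 (lmFit, eBayes; R 4.3.3) gave two-sided p-values, adjusted by Benjamini and Hochberg's method over every tested probe set; its prior had 3.02 degrees of freedom. No pair of arrays held identical values, and the fit was tested on simulated data. Differences of untested probe sets come from a fit without a filter.

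The interleukin rule and the lists were chosen with earlier results of these data known. Every tested interleukin probe set is named, as are untested ones above the median on 1 or 2 arrays or of a gene with another tested probe set, and the 3 tested genes of smallest p in each pathway list; the other untested probe sets are given with ranges and, for IL12B, by array, chosen after its values were seen, as were the cell type markers named. Alternatives covered 3 other filters, 3 normalizations, offsets of 16 and 64, 3 variance models, the replicate number as a block, and leaving out each array. With that block the difference rests only on the replicate numbers that occur in both groups. The number of arrays limits the precision.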

Additional observations from a re-analysis of the deposited data

How the results depend on the processing

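In each alternative run, 0 interleukin probe sets and 0 pathway genes passed limma's adjusted test. Over all tested probe sets it called 6 of 8468 with the filter at all 6 arrays and 4 of 12519 with the intensity trend. It called 2 of 12519 without laminitis replicate 4 and 0 in every other run, so nothing is read from the 0 for the interleukins. The unadjusted count of interleukin probe sets with limma p under 0.05 was 1 in the fit as reported. With no filter it was 3 of 45, against 1791 of all 24016. It was 2 without normal replicate 4 or with the replicate block. It was 0 with the filters at all 6 arrays and at the 75th percentile and with the intensity trend. Shares over all probe sets were not taken for these other runs, so their counts are not read. Detection was not used, so dim values have no floor. Groups did not overlap for 5 interleukin probe sets with no filter, for 0 of 7 above the median on all 6 arrays (17.5% of all probe sets so filtered), for 0 of 4 above the 75th percentile on at least 3 (18.6%), numbers too small to read, and for 3 to 5 with 1 array left out (5 without laminitis replicate 4), where 24% to 31.9% of all tested probe sets did not overlap. The median log2 difference of the interleukin probe sets was -0.089 with the 75th percentile filter, 0.13 after cyclic loess, and with 1 array left out from -0.091, in the absence of normal replicate 2, to 0.060, in that of normal replicate 3. At 2 times the array median, 5 probe sets rather than 16 lay above the threshold on at least 3 arrays. With the median taken over single-symbol probe sets only, 12 did.

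Of the 16 tested probe sets, 11 kept their sign in every alternative run on them other than leaving out an array, and 6 kept it in those as well: IL13, the dimmer IL13RA1 probe set, IL16, IL17A, IL34 and IL7. IL16 ranged from -0.995 with the replicate block to -0.50 with 64 added, its adjusted p from 0.244 to 0.712. IL16 entered the test through the normal arrays alone, so this range is no sign of stability. IL7 entered through the laminitis arrays alone, and IL34 through all laminitis arrays and 1 normal array. Their kept signs are no sign of stability either. Signs turned for IL21 (0.065 after quantile normalization, 0.058 after median centring, 0.079 after cyclic loess), IL6R (0.0048, 0.012 and 0.022 in the same order) and IL15 (0.028 after centring, 2e-04 after cyclic loess). With 1 array left out the difference ran from -0.079 to 0.25 for IL12RB2, -0.088 to 0.23 for the brighter IL13RA1 probe set, -0.093 to 0.0081 for IL15, -0.0051 to 0.36 for the dimmer IL18R1 probe set, -0.030 to 0.22 for IL1RAP, -0.12 to 0.51 for IL20RB, -0.31 to 0.12 for IL21, -0.32 to 0.18 for IL21R and -0.22 to 0.054 for IL6R.

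Replicate numbers 3 and 4 occur in both groups. Deviations from the group means correlated at -0.017 for the arrays numbered 3 and -0.031 for those numbered 4, so the numbers were not taken to pair the samples. With the replicate block, the difference came from the arrays numbered 3 and 4 alone. In that fit 0 interleukin probe sets were called, their median difference was -0.021, and the sign turned for the brighter IL18R1 probe set (0.073) and IL1RAP (-0.087). Probe sets outside a stricter filter have no value there. The cause of these changes was not tested.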
